A study of Mus musculus with 6 samples.

Results

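Cell cycle and proliferation genes were followed in mononuclear cells from skeletal muscle of tumour-bearing mice. The members are 38 genes chosen by name: the cyclins, cyclin-dependent kinases (CDKs), CDK inhibitors, replication genes and mitotic genes. Of these, 37 were among the 17030 genes of the deposited table, and Ccne1, which encodes cyclin E1, was not analysed here. They were divided into 5 lists by phase: 5 G1 cyclins and their kinases, 3 genes of the G1 to S transition, 4 CDK inhibitors, 9 replication genes and 16 genes of G2 and mitosis.

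RNA came from 6 male C57BL/B6 mice carrying the transplantable Lewis lung carcinoma (LLC), and all 6 were homozygous for floxed IKKb (IKKbfl/fl), the kinase of canonical NF-kB signalling encoded by Ikbkb. The 3 mice called Pax7-CreERT also carried Pax7 Cre ErT, a recombinase that tamoxifen activates in cells expressing Pax7, the transcription factor of muscle satellite cells, and the 3 controls carried no Cre. Every mouse, control mice included, was given tamoxifen between day 10 and day 14 after tumour cells were injected, and the ages of the mice were not given in the sources used here. Because Cre was never present without floxed IKKb, the recombinase and the deletion cannot be told apart. Values are in CPM, meaning reads per 1000000 assigned reads, and are listed in the order of replicates 1, 2 and 3 of each group.

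A cell enters the cycle when D-type cyclins with Cdk4 and Cdk6 phosphorylate the retinoblastoma protein and release E2F factors, which drive genes of DNA replication. Cyclin E with Cdk2 takes the cell into S phase, and the CDK inhibitors of the Cip/Kip and Ink4 families hold these kinases back. Cyclin A and then cyclin B with Cdk1 carry the cell through G2 and mitosis, and their genes depend on the MuvB and FoxM1 factors. In muscle, satellite cells rest outside the cycle until injury, while erythroid precursors divide rapidly in bone marrow and spleen and give rise to the red cells of the blood that muscle preparations can hold.

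The libraries held an estimated 4053000 to 13355000 reads, so that a gene at 10 CPM had a counting SD of 8.65% to 15.7% and a gene at 1 CPM one of 27.4% to 49.7%. Ikbkb measured 51.4, 48.4 and 52.7 CPM in the Pax7-CreERT libraries and 51.3, 57.4 and 48.8 CPM in control mice, with overlapping groups. Values per gene do not separate the floxed exons, and the cells that carry Pax7 are only part of the preparation, so these values do not check the deletion. In bulk RNA, fewer cells of a type and less RNA per cell cannot be told apart. Control replicate 3 stood apart from the rest: 12.6% of its CPM was haemoglobin RNA, where the share was 4.47% in control replicate 1, 2.57% in control replicate 2, and 2.72%, 1.84% and 4.83% in Pax7-CreERT mice. Values without this library are given beside the genes that it moved most.

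Across the members no gene differed between the genotypes after adjustment, and the medians of the lists lay near 0. Of the 37 members, 30 reached the 1 CPM required in 3 or more of the 6 libraries, and 7 mitotic genes did not. Of these 30, 0 had an adjusted p under 0.05 (limma with Benjamini-Hochberg adjustment, lowest 0.891), where 1 of all 14763 genes tested did, or 0.00677%. That gene was Zfp697, a zinc finger gene outside the members that is named here after its values were seen. At an unadjusted p under 0.05 there were 4 members, 2 with higher and 2 with lower means in the Pax7-CreERT mice, where 5.52% of all genes passed, 4.58% as higher and 0.942% as lower. The groups did not overlap in 2 of the 30, both higher, and in 11% of all genes, 8.69% higher and 2.28% lower. By direction, 13 members had higher and 17 lower means in the Pax7-CreERT mice, with a median log2 fold change of -0.03, beside 68.0% of all genes higher and a median of 0.09. The share of all genes that were higher depended on the scaling: it was 51.4% with trimmed mean of M values (TMM) factors and 50.9% with quantile normalization.

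**Figure D1:**
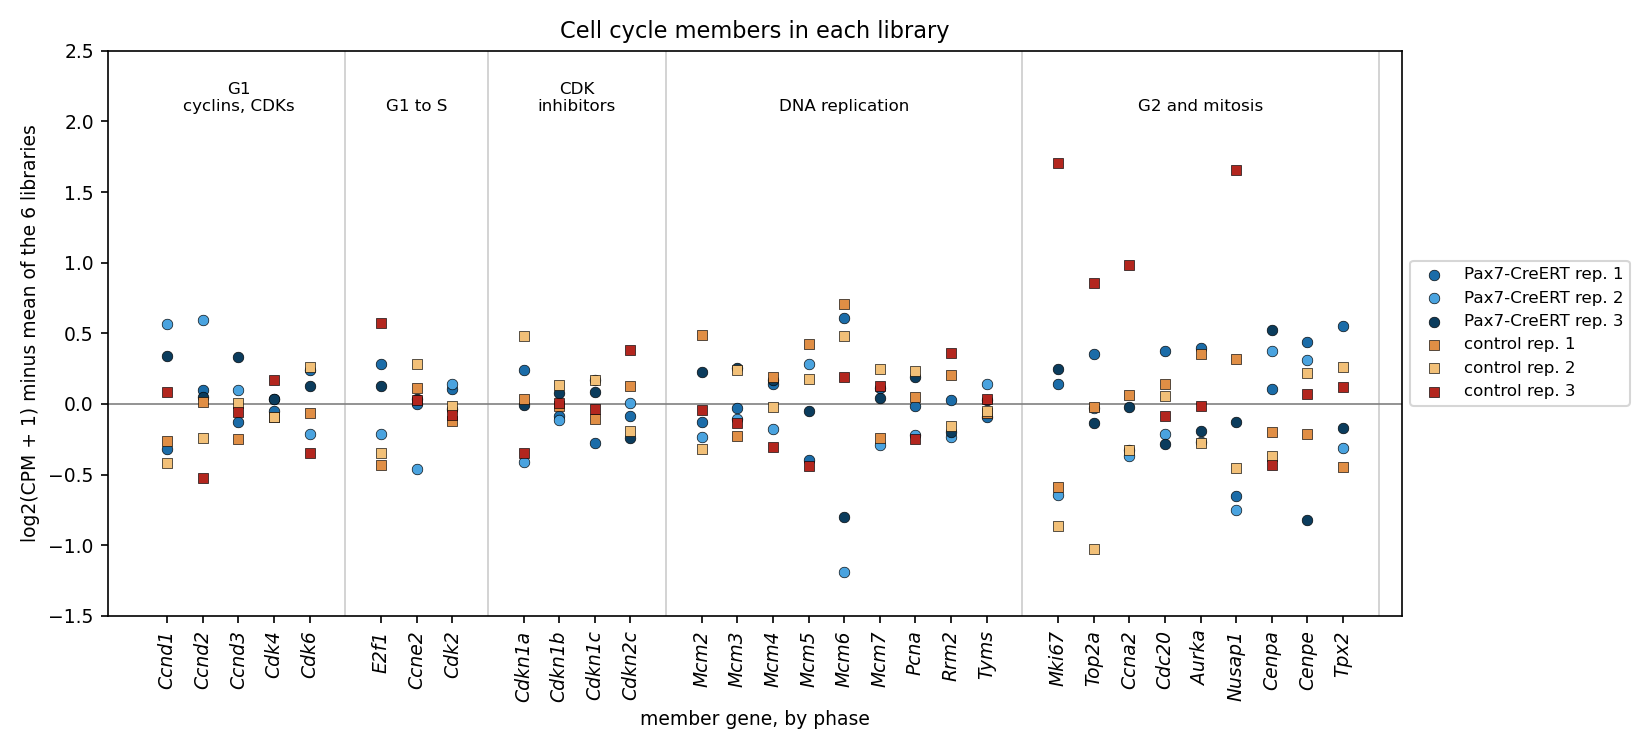
Level of each of the 30 tested members in each library, as log2(CPM + 1) minus the mean of the gene over the 6 libraries, with the members in phase order. Circles are Pax7-CreERT and squares control libraries. Control replicate 3, the dark red square, stands far above the other libraries in Mki67 and Nusap1 and highest in Top2a and Ccna2, and Mcm6 is low in Pax7-CreERT replicates 2 and 3.

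The G1 cyclins and their kinases were the list with the highest median. All 5 had higher means in the Pax7-CreERT mice, with a median log2 fold change of 0.20, and with TMM factors or quantile normalization 4 were higher and Cdk4 lower, with medians of 0.11 and 0.12. Markers of some other cell types were higher in the same mice: all 9 mature myofibre markers (median log2 fold change 0.84) and all 8 pericyte and smooth muscle markers (median 0.32), also with TMM factors and quantile normalization. The myofibre markers summed to 1961 to 2750 CPM in the Pax7-CreERT libraries and 948 to 1595 CPM in control mice, and the pericyte and smooth muscle markers to 8930 to 11304 against 7001 to 8946 CPM, with none at 0. None of these 17 markers had an adjusted p under 0.05. Of 8 fibro-adipogenic progenitor markers 6 were higher and 2 lower (median 0.31). Satellite cell markers divided into 6 and 2 (median 0.05) and endothelial markers into 5 and 3 (median 0.06). All 9 tested erythroblast markers were lower (median -0.97). The part of any of these cell types in the levels of the G1 list was not tested.

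Ccnd2, which encodes cyclin D2 (chromosome 6, 127125709 to 127151048 of mm10, minus strand), measured 149, 210.1 and 144 CPM in Pax7-CreERT mice and 140.4, 117 and 96.2 CPM in control mice. Every Pax7-CreERT library lay above every control, with Pax7-CreERT replicate 2 the highest and control replicate 3 the lowest. The gap between Pax7-CreERT replicate 3 (143.9 CPM on 707 reads) and control replicate 1 (140.4 CPM on 840 reads) was smaller than the counting error. Means were 168 ± 36.9 against 118 ± 22.1 CPM (SD, n = 3 each). By limma the log2 fold change was 0.50 (SE 0.19, 95% interval 0.08 to 0.91, adjusted p = 0.891). Without Pax7-CreERT replicate 2 the log2 fold change was 0.32, and without control replicate 3 it was 0.36. An exact 2-sided permutation test gave p = 0.1, the least that 3 mice against 3 can give.

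Ccnd1, the gene of cyclin D1, measured 58.2, 108 and 92.7 CPM in Pax7-CreERT mice and 60.8, 54.4 and 77.4 CPM in control mice. The groups overlapped, since Pax7-CreERT replicate 1 lay below 2 of the controls. The log2 fold change of Ccnd1 was 0.39 (SE 0.23, adjusted p = 0.896). It was 0.65 without Pax7-CreERT replicate 1 (adjusted p = 0.998) and 0.21 without Pax7-CreERT replicate 2 (adjusted p = 0.999).

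Cdk6, a kinase partner of the D cyclins, measured 101, 74.1 and 93.8 CPM against 82.2, 103 and 67.3 CPM, with the highest and the lowest value both in control libraries. Its log2 fold change was 0.10 (95% interval -0.30 to 0.50, adjusted p = 0.953), and -0.05 without control replicate 3. The other kinase, Cdk4, was among the steadiest members, between 18.3 and 22.2 CPM in all 6 libraries, with a log2 fold change of 0.01 (95% interval -0.33 to 0.35). Ccnd3, the gene of cyclin D3, measured 31.9, 37.4 and 44.1 CPM against 29.2, 35.1 and 33.5 CPM.

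Genes of the G1 to S transition did not separate the genotypes. Of the 3 tested, 2 had higher and 1 a lower mean, with a median log2 fold change of 0.13, which became -0.05 without control replicate 1 and -0.01 when control replicate 2 was left out. Cdk2, the kinase that cyclin E activates, measured 29.4, 30.2 and 26.7 CPM in Pax7-CreERT mice and 25.1, 27.1 and 25.9 CPM in control mice. The groups overlapped in a narrow range, and the log2 fold change was 0.14 (95% interval -0.17 to 0.45, adjusted p = 0.915). Ccne2, which encodes cyclin E2, measured 10.1, 7.05 and 10.4 CPM against 10.998, 12.5 and 10.3 CPM. Only Pax7-CreERT replicate 3 reached the controls, and the log2 fold change was -0.29 (95% interval -0.74 to 0.17, adjusted p = 0.899), which was -0.13 without Pax7-CreERT replicate 2. E2f1, the founding E2F factor, was a low transcript at 2.84, 1.72 and 2.44 CPM against 1.34, 1.48 and 3.70 CPM. Its highest library was control replicate 3, and its log2 fold change was 0.13 with that library and 0.45 without it (adjusted p = 0.966 with it).

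The CDK inhibitors were near level. All 4 had slightly lower means in the Pax7-CreERT mice, with a median log2 fold change of -0.10. The count was 4 lower with TMM factors and quantile normalization too, while 2 were higher and 2 lower without control replicate 2 (median 0.01). Cdkn1b, which encodes p27, measured 220.2, 216 and 246 CPM in Pax7-CreERT mice and 231, 257 and 234 CPM in control mice. Its libraries lay within 1.19-fold of each other, and the log2 fold change was -0.08 (95% interval -0.36 to 0.20, adjusted p = 0.942). Cdkn1c, the gene of p57, measured 121, 165 and 156 CPM against 136, 165 and 143 CPM. Its log2 fold change was -0.01 (95% interval -0.35 to 0.32), with the lowest value in Pax7-CreERT replicate 1.

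Cdkn1a, the p53 target that encodes p21, measured 115, 73.1 and 97.1 CPM against 99.96, 136 and 76.2 CPM. The groups overlapped throughout, and its log2 fold change was -0.11 (95% interval -0.62 to 0.39, adjusted p = 0.955). Leaving out control replicate 3 gave -0.32, and leaving out control replicate 2 gave 0.10, so the sign rested on single libraries. Cdkn2c, the Ink4 inhibitor p18, measured 13.4 to 16.1 CPM in the Pax7-CreERT libraries and 13.9 to 21.2 CPM in control mice. Set against exon length, Cdkn1c and Cdkn1b had the highest levels of all members. Cdkn1c had a mean level of 72.4 CPM per kb of exon, Cdkn1b 51.4, Cdkn1a 28.1 and Cdkn2c 6.03, beside 49.5 for Pcna, 15.99 for Ccnd1, 5.15 for Mki67 and 0.0524 for Cdk1.

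Replication genes were near level apart from Mcm6. Of the 9, 3 had higher and 6 lower means, and the median log2 fold change was -0.09, and with TMM factors or quantile normalization 1 was higher and 8 lower. Pcna, the sliding clamp of the replication fork (chromosome 2, 132249286 to 132253180, minus strand), measured 117, 101 and 135 CPM in Pax7-CreERT mice and 122, 139 and 99.2 CPM in control mice. Both groups covered nearly the same range, with means of 118 ± 16.8 and 120.0 ± 19.9 CPM (n = 3 each, SD) and a log2 fold change of -0.02 (95% interval -0.39 to 0.34, adjusted p = 0.987). Control replicate 3, the library richest in haemoglobin, had the lowest Pcna value of the 6. That library was the lowest for 39.8% of all genes tested. Without control replicate 3 the log2 fold change of Pcna was -0.15.

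Mcm2 to Mcm7 encode the 6 subunits of the replicative helicase, which are loaded on DNA as a ring. Mcm6 (chromosome 1, 128331575 to 128359705, minus strand) measured 23.8, 6.14 and 8.34 CPM in Pax7-CreERT mice and 25.6, 21.7 and 17.5 CPM in control mice. Pax7-CreERT replicate 1 lay among the controls, and replicates 2 and 3 lay below every other library. Means were 12.7 ± 9.60 against 21.6 ± 4.03 CPM (SD, n = 3 each), and the log2 fold change was -0.92 (SE 0.39, 95% interval -1.79 to -0.05, adjusted p = 0.891). It was -1.45 without Pax7-CreERT replicate 1 (adjusted p = 0.689), -0.56 without replicate 2 (adjusted p = 0.999) and -0.75 without replicate 3 (adjusted p = 0.868).

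The other subunits did not share this pattern. Mcm4 measured 36.3, 28.8 and 37.0 CPM in Pax7-CreERT mice and 37.6, 32.2 and 26.4 CPM in control mice, and Mcm3 17.3, 16.4 and 21.4 against 15.04, 21.2 and 16.04 CPM. The log2 fold change of Mcm4 was 0.09, and -0.04 without control replicate 3. In Pax7-CreERT replicate 2, where Mcm6 was at its lowest, Mcm5 stood at 7.19 CPM, next to its highest value of 8.02 CPM in control replicate 1. The 6 libraries spanned 4.17-fold in Mcm6 and between 1.42-fold and 2.03-fold in each of the other 5 subunits. The spread of Mcm6 over the libraries, as an SD of log2(CPM + 1), was at percentile 98.3 among all genes tested. Tyms, the thymidylate synthase, was one of the steadiest members at 12.1 to 14.5 CPM, and Rrm2, the S-phase subunit of ribonucleotide reductase, was low at 0.973 to 1.97 CPM.

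Promoters of replication genes were read for textbook elements, to show what Mcm6 carries beside the steady Pcna. The elements were the E2F site (TTTCCCGC, TTTGGCGC, TTTCGCGC or TTTGCCGC), the CCAAT box (CCAAT), the GC box (GGGCGG) and the cell cycle homology region, or CHR (TTTGAA or TTCGAA), each on either strand. The 250 bases before the gene start, from RefSeq on GRCm38.p6, are printed 5′ to 3′ on the strand of the gene, and capitals mark the matches.
Pcna (chr2:132253181-132253430, minus strand): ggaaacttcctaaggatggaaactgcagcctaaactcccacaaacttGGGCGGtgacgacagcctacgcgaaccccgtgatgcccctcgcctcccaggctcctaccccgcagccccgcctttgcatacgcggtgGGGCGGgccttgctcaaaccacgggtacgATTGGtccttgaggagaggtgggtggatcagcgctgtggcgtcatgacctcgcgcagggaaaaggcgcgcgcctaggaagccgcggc
Mcm6 (chr1:128359706-128359955, minus strand): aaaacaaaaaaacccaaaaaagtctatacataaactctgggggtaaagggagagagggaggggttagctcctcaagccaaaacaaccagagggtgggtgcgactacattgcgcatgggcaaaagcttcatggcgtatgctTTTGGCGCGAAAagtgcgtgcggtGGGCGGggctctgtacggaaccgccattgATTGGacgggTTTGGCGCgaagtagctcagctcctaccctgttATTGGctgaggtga
Mcm6 held 3 E2F matches, which begin 110, 106 and 47 bases before the gene start, the first pair overlapping on opposite strands, with 2 CCAAT boxes and 1 GC box. Pcna held 1 CCAAT box, 2 GC boxes and 0 E2F matches.

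The entries covered 29 of the 37 members. An E2F match was present in 5 of the 29, or 17.2%, a CCAAT box in 20, or 69.0%, a GC box in 21, or 72.4%, and a CHR in 7, or 24.1%. Among all 27025 promoters of the same length the shares were 1.91%, 34.5%, 32.9% and 17.4%, and among the promoters of 11628 tested genes 3.24%, 35.9%, 56.6% and 12.7%. The E2F matches lay in 3 of 8 replication promoters (Mcm5, Mcm6 and Mcm7), in Cdk2 and in Cdk1. A match describes the letters in the window and does not show a site in use.

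The genes of G2 and mitosis were divided between a few measurable transcripts and many at the detection limit. Of the 16, 9 were tested, with 3 higher and 6 lower means, and the median log2 fold change was -0.05. With TMM factors or quantile normalization 2 were higher and 7 lower. The median spread of its members over the libraries was at percentile 88.2 among all genes, against 42.3 for the replication list. Mki67, Nusap1 and Ccna2 were all far higher in control replicate 3 than elsewhere. This library had 4.02 times the mean of the other 5 in Mki67, 4.08 times in Nusap1, 2.39 times in Ccna2 and 2.27 times in Top2a. It was the highest library for 4 of the 9 tested members of this list and for 14.8% of all genes tested, and the 4 were chosen after their values were seen.

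Mki67, which encodes the Ki-67 protein that coats mitotic chromosomes and marks cycling cells (chromosome 7, 135689788 to 135716379, minus strand), measured 46.3, 26.4 and 49.9 CPM in Pax7-CreERT mice and 27.4, 22.5 and 139 CPM in control mice. The controls held both the lowest and the highest value. With all 6 libraries the log2 fold change was -0.17 (SE 0.56, 95% interval -1.42 to 1.09, adjusted p = 0.976). Without control replicate 3 its sign turned, to 0.64 (adjusted p = 0.707), and with the haemoglobin share of the library as a covariate it was 0.73 (adjusted p = 0.682). Neither value passed the adjustment over all genes.

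Nusap1, a protein that bundles spindle microtubules (chromosome 2, 119618298 to 119650160, plus strand), measured 8.31, 7.71 and 12.4 CPM in Pax7-CreERT mice and 17.2, 9.70 and 45.1 CPM in control mice. Control replicate 2 lay below Pax7-CreERT replicate 3, so the groups overlapped. The log2 fold change was -1.02 (SE 0.44, 95% interval -2.00 to -0.03, adjusted p = 0.895). It was -0.44 without control replicate 3 (adjusted p = 0.869) and -0.34 with the haemoglobin share as a covariate (adjusted p = 0.905).

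Ccna2, the gene of cyclin A2, which acts in S phase and G2 (chromosome 3, 36564865 to 36573038, minus strand), measured 7.86, 7.61 and 9.98 CPM in Pax7-CreERT mice and 10.6, 7.87 and 21.0 CPM in control mice. Outside control replicate 3 the values lay between 7.61 and 10.6 CPM. The log2 fold change was -0.48 (95% interval -1.16 to 0.21, adjusted p = 0.896), -0.11 without control replicate 3 and -0.05 with the covariate. Whether reads were counted by strand is not given in the sources used here. The genes on the opposite strand that overlap Ccna2 and Nusap1 were low. Exosc9 beside Ccna2 stood at 2.22 CPM in control replicate 3 against a mean of 2.27 in the other 5 libraries, and Oip5 beside Nusap1 at 3.95 against 2.505 CPM. Gm45240, on the opposite strand of Mki67, was not examined.

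Cenpa, the centromeric histone H3 variant (chromosome 5, 30666886 to 30674837, plus strand), measured 1.89, 2.47 and 2.85 CPM in Pax7-CreERT mice and 1.34, 1.08 and 0.987 CPM in control mice. All Pax7-CreERT libraries lay above all controls, at levels near the 1 CPM of the filter. Means were 2.40 ± 0.482 against 1.13 ± 0.182 CPM (SD, n = 3 each), and the log2 fold change was 0.67 (SE 0.26, 95% interval 0.09 to 1.24, adjusted p = 0.891). On the log2(CPM + 0.25) scale it was 0.93 and on the log2(CPM + 4) scale 0.32, since the added constant shrinks the changes of low genes. The exact permutation p was 0.1.

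The remaining tested members of this list did not separate the groups. Top2a, the topoisomerase that untangles sister chromatids, measured 4.42, 3.14 and 2.85 CPM against 3.18, 1.08 and 6.66 CPM. Cdc20, the activator of the anaphase-promoting complex, measured 2.24 to 4.1 CPM in the Pax7-CreERT libraries and 2.71 to 3.34 CPM in control mice. The mitotic kinase Aurka, its activator Tpx2 and the kinetochore motor Cenpe lay between 0.204 and 3.68 CPM in all 6 libraries, with adjusted p-values from 0.986 to 0.987.

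The core of the mitotic kinase machinery was near the limit of detection. Cdk1, Ccnb1, Ccnb2, Plk1, Aurkb, Bub1 and Birc5 did not pass the filter. Their values summed to 4.42, 3.14 and 2.24 CPM in Pax7-CreERT mice and 2.67, 2.69 and 5.43 CPM in control mice, or 42, 42 and 11 against 16, 20 and 22 reads. Cdk1, the kinase that starts mitosis, had 2, 4 and 0 reads in the Pax7-CreERT replicates and 1, 1 and 3 in the controls. Its 0 in Pax7-CreERT replicate 3 allows up to 0.611 CPM (3 reads), for counting error only. Ccnb1, the gene of cyclin B1, had 7, 3 and 2 reads against 0, 2 and 1, and the 0 in control replicate 1 allows up to 0.502 CPM. Plk1, the polo-like kinase, had 8, 6 and 0 reads against 2, 3 and 0, so it was at 0 in the same library in which Mki67 was at its highest, where 0 allows up to 0.740 CPM.

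Ccnb2, the gene of cyclin B2, measured 0.315, 0.374 and 0.611 CPM in Pax7-CreERT mice and 1.17, 0.808 and 1.48 CPM in control mice. The groups did not overlap, with the Pax7-CreERT mice lower, at 3, 5 and 3 reads against 7, 6 and 6. At this depth it was not tested in the model, and the exact permutation p was 0.1.

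**Figure D2:**
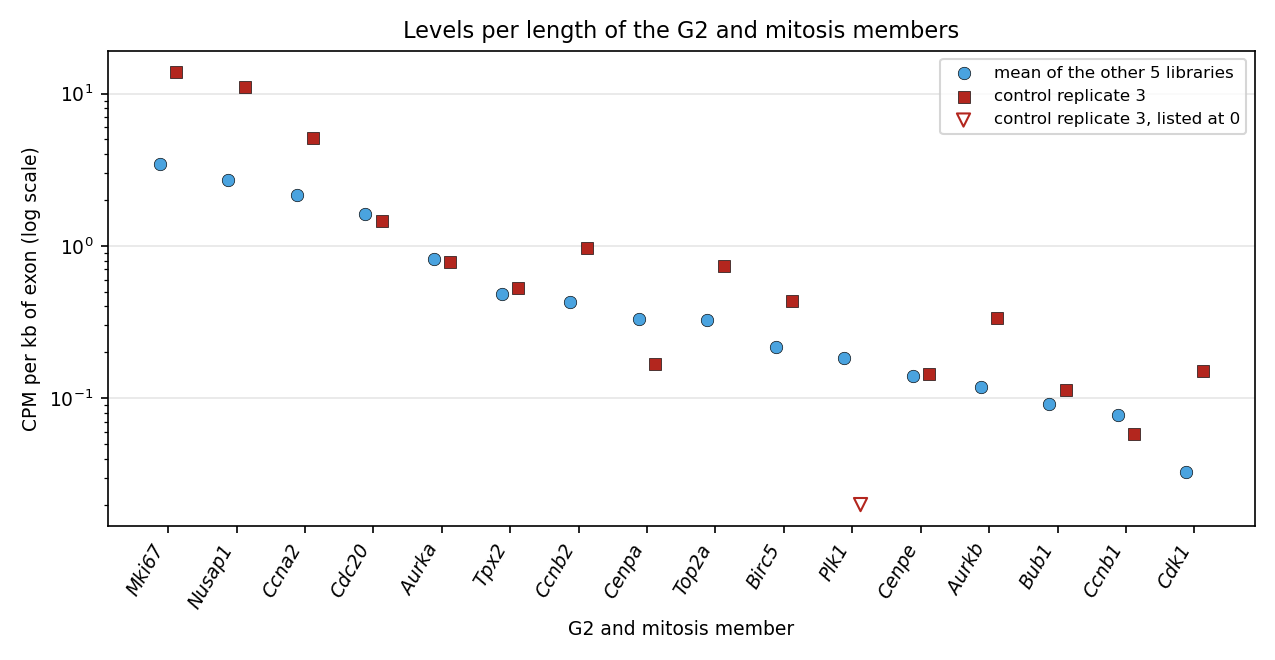
Level per length, in CPM per kb of exon on a log axis, of the 16 genes of G2 and mitosis in control replicate 3 (squares) and as the mean of the other 5 libraries (circles). Mki67, Nusap1 and Ccna2 are the highest and stand at 4.02, 4.08 and 2.39 times the mean of the other 5 in control replicate 3. Top2a (2.27 times) is also higher there, as are Cdk1 (4.56), Aurkb (2.81), Ccnb2 (2.26) and Birc5 (2.02), on 3 to 6 reads in that library. Cdc20, Aurka, Tpx2, Cenpe and Bub1 differ by less, and Cenpa (0.512) and Ccnb1 (0.753) are lower. Plk1 is listed at 0 there, drawn at an arbitrary height.

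Per kb of exon, Mki67 stood at 13.8 CPM in control replicate 3 and at a mean of 3.43 in the other 5 libraries, Nusap1 at 11.1 and 2.73, and Ccna2 at 5.14 and 2.15. On the same scale Cdk1 stood at 0.150 and 0.0329, Ccnb1 at 0.0585 and 0.0776, and Cdc20 at 1.45 and 1.62. The members of this list therefore did not keep a common ratio between control replicate 3 and the other libraries.

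Promoters of the mitotic members were read with the same elements, to compare the most abundant member, Mki67, with Cenpa, which had the lowest p, and with Nusap1, which was added after its values were seen.
Mki67 (chr7:135716380-135716629, minus strand): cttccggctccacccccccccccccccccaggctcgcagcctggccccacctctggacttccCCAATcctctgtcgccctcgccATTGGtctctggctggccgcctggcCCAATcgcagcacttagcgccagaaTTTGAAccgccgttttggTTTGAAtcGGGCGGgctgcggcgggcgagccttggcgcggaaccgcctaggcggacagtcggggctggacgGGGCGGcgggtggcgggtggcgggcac
Nusap1 (chr2:119618048-119618297, plus strand): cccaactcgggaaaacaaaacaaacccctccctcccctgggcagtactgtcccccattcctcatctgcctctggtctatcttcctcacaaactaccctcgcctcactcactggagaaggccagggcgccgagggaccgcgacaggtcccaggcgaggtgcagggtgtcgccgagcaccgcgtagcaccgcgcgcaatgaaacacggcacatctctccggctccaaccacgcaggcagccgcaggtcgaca
Cenpa (chr5:30666636-30666885, plus strand): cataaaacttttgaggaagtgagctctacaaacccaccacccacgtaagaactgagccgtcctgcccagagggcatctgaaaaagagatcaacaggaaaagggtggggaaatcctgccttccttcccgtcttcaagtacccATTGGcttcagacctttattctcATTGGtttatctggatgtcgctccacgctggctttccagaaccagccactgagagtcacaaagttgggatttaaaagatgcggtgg
Mki67 held 2 CHR matches, which begin 116 and 98 bases before the gene start, with 3 CCAAT boxes and 2 GC boxes. Cenpa held 2 CCAAT boxes and no other match, and the Nusap1 window held none of the 4 elements. Mki67 and Nusap1 were both highest in control replicate 3, and any part of these elements in that was not tested. Ccna2, also highest there, had no promoter entry. Of 13 promoters of G2 and mitosis members, 11 held a CCAAT box and 5 a CHR (Ccnb2, Cdc20, Cdk1, Mki67 and Top2a).

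The erythroid content of each library was next set beside the members. Of 13 erythroblast markers, 10 were in the table and none of these was at 0 in any library. Their summed level was 36.3 to 103 CPM in the Pax7-CreERT libraries and 72.2 to 474 CPM in control mice. Gata1, the master transcription factor of erythroid precursors, measured 1.37, 0.374 and 1.22 CPM in Pax7-CreERT mice and 1.504, 1.21 and 6.17 CPM in control mice. Klf1, another erythroid transcription factor, was at 0.841, 0.0749 and 0.204 CPM against 0.669, 0.539 and 1.48 CPM, close to the level of a few reads. The 12 red cell and reticulocyte markers summed to 1369 to 3038 CPM and 1783 to 11824 CPM, and each of them was highest in control replicate 3.

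Other cell types also moved with that library. Of 7 tested B cell markers, 6 were highest in control replicate 3, among them Ms4a1, the gene of CD20, at 2.21, 2.02 and 22.8 CPM in Pax7-CreERT mice and 5.01, 2.69 and 33.3 CPM in control mice. The 8 B cell markers summed to 265 to 350 CPM against 271 to 385 CPM, with Vpreb3 at 0 in at least 1 library. The largest part of these sums was 1 marker with a mean of 252.8 CPM, so they hide the spread of the others. Each of the 7 tested markers spanned between 1.13-fold and 23.1-fold over the libraries. Their median log2(CPM + 1), centred on the mean of each gene, was 1.96 in control replicate 3 and 1.15 in Pax7-CreERT replicate 3. It was negative in every other library. Of 9 macrophage and monocyte markers 7 were highest in control replicate 3, and the 9 summed to 372 to 549 CPM against 283 to 793 CPM. The 9 mature myofibre markers were all lowest there, as were 39.8% of all genes tested. Granulocyte precursors, another dividing population, were near absent: of 6 markers 3 were in the table, their sums were 0.599 to 2.31 CPM against 0.501 to 0.987 CPM, and Elane and Prtn3 were at 0 in at least 1 library. Satellite cell markers summed to 414 to 459.8 CPM against 399 to 456 CPM. The part of each of these cell types in the members' levels was not tested.

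**Figure D3:**
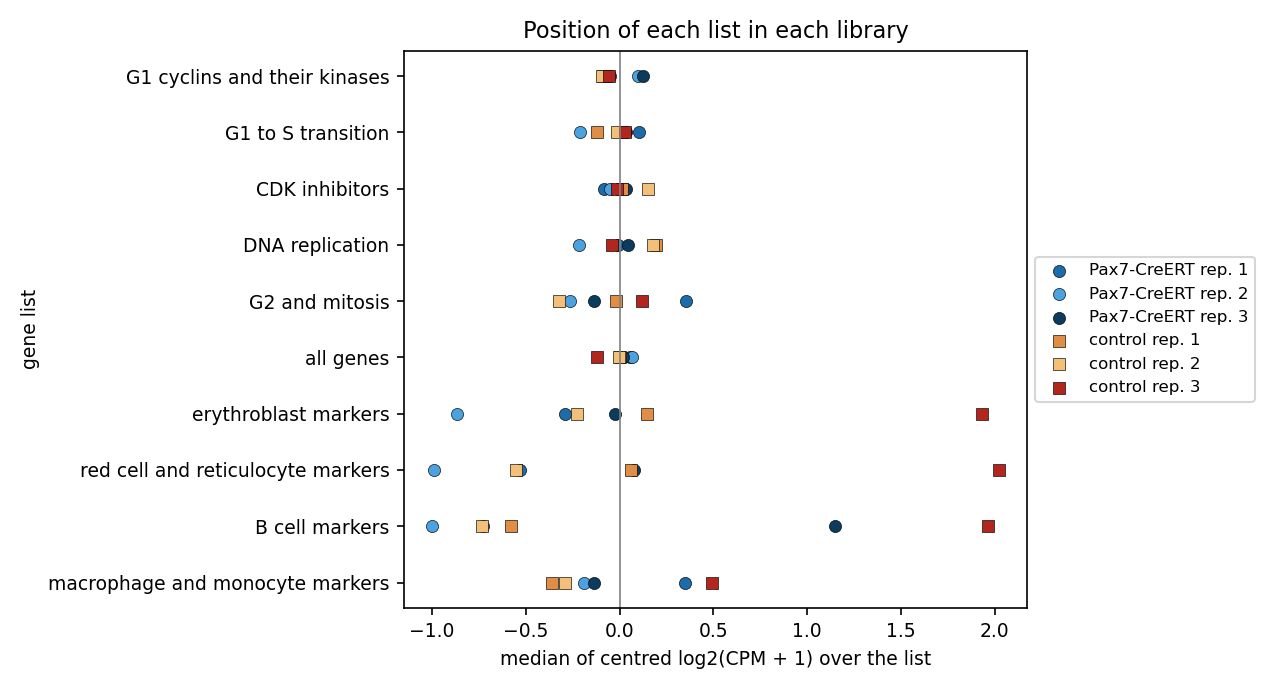
Position of each list in each library, as the median over its tested genes of log2(CPM + 1) minus the mean of the gene over the 6 libraries. The erythroblast, red cell and B cell markers lie near 2 in control replicate 3, whereas the 5 cell cycle lists stay between -0.33 and 0.36 in all libraries.

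By the median of their genes, the member lists did not peak in control replicate 3 as the erythroid markers did. On the scale of log2(CPM + 1) centred on the mean of each gene, the erythroblast markers lay at 1.93 in control replicate 3 and between -0.87 and 0.15 in the other libraries. The G2 and mitosis list lay at 0.12 in control replicate 3 and highest in Pax7-CreERT replicate 1, at 0.36. Its summed level, in which Mki67 is the largest part, did peak there: it was 85.8, 57.6 and 86.1 CPM in Pax7-CreERT mice and 70.8, 53.8 and 226 CPM in control mice. The lowest sum within each group was in the library with the lowest haemoglobin share. The median of all genes tested lay at -0.12 in control replicate 3 and between -0.005 and 0.07 in the other libraries. All 5 member lists lay above the median gene in control replicate 3, with G1 to S at 0.03 and the CDK inhibitors at -0.02 there. The replication list lay at -0.04 in control replicate 3, and at 0.19 and 0.18 in control replicates 1 and 2. The G1 list lay at -0.06 in control replicate 3, close to the other controls at -0.09 and -0.10, and at -0.05, 0.10 and 0.13 in the Pax7-CreERT replicates. The CDK inhibitors lay between -0.09 and 0.15 in all libraries.

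Single members were then related to the haemoglobin share over the 6 libraries, as a Pearson r and a Spearman rho of log2(CPM + 1), with exact permutation of all 720 pairings. The share is a sum over 6 haemoglobin genes that did not all move together. Their own r with it ran from 0.07 to 0.96, their libraries spanned up to 2270-fold, and 4 of them were highest in control replicate 3. The 12 red cell and reticulocyte markers had r from 0.93 to 0.996 with the share. An r above 0.9 was found in 3 of the 30 tested members, Mki67, Nusap1 and Ccna2, where 1.92% of all genes tested had such an r. No relation passed the Benjamini-Hochberg adjustment over the 14763 genes (lowest adjusted p 0.263 for r and 0.432 for rho). The median r was -0.11 for the G1 list, 0.19 for G1 to S, -0.01 for the CDK inhibitors, 0.10 for replication and 0.06 for G2 and mitosis, beside -0.33 for all genes.

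Ccna2 had r = 0.99 (exact permutation p = 0.00556, adjusted p = 0.277) and rho = 0.89 (exact permutation p = 0.0333). Without the 2 libraries farthest from the median share, control replicate 3 and Pax7-CreERT replicate 2, r was 0.96, and without control replicate 3 alone it was 0.96 (exact permutation p = 0.0333), with rho = 0.8 (exact permutation p = 0.133). Those 5 libraries spanned only 7.61 to 10.6 CPM, at 49 to 102 reads. Nusap1 had r = 0.97 (exact permutation p = 0.00833, adjusted p = 0.291) and rho = 0.89 (exact permutation p = 0.0333), with r = 0.81 without the 2 farthest libraries and 0.87 without control replicate 3 (exact permutation p = 0.0833), where rho was 0.8.

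Mki67 had r = 0.90 (exact permutation p = 0.0222, adjusted p = 0.325) and rho = 0.89 (exact permutation p = 0.0333). Its r was 0.32 without the 2 farthest libraries and 0.44 without control replicate 3 (exact permutation p = 0.4), so the linear relation rested on those libraries. By rank it was not weaker than for the other two genes, with rho = 0.8 without control replicate 3 (exact permutation p = 0.133) for each of the 3. At a haemoglobin share of 4.47% in control replicate 1 and 4.83% in Pax7-CreERT replicate 3, Ccna2 stood at 10.6 and 9.98 CPM but Mki67 at 27.4 and 49.9 CPM. Members of other phases had relations of both signs. Pcna had r = -0.45, Mcm4 -0.52, Cdk2 -0.57 and Ccnd2 -0.74, with exact permutation p-values from 0.132 to 0.454. Cdk4 had r = 0.78, Cdkn2c 0.77, Rrm2 0.77 and E2f1 0.69, with exact permutation p-values from 0.0389 (Rrm2, adjusted p = 0.338) to 0.101. Without control replicate 3 these 4 had r = -0.02, -0.05, 0.38 and 0.05. Pcna and Mcm4 then turned to 0.54 and 0.84, while Cdk2 and Ccnd2 stayed negative, at -0.81 and -0.41.

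Within a genotype too few libraries remain for a correlation, so values are given side by side. Among the controls, Mki67, Nusap1 and Ccna2 all had the order of the erythroblast marker sum, with control replicate 3 highest and control replicate 2 lowest. Among the Pax7-CreERT libraries the same order, replicate 3, replicate 1 and replicate 2, held for Mki67, Nusap1 and Ccna2, although the gap between replicates 1 and 2 for Nusap1 and Ccna2, and between replicates 3 and 1 for Mki67 (49.9 CPM on 245 reads against 46.3 CPM on 440 reads), was smaller than the counting error.

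**Figure D4:**
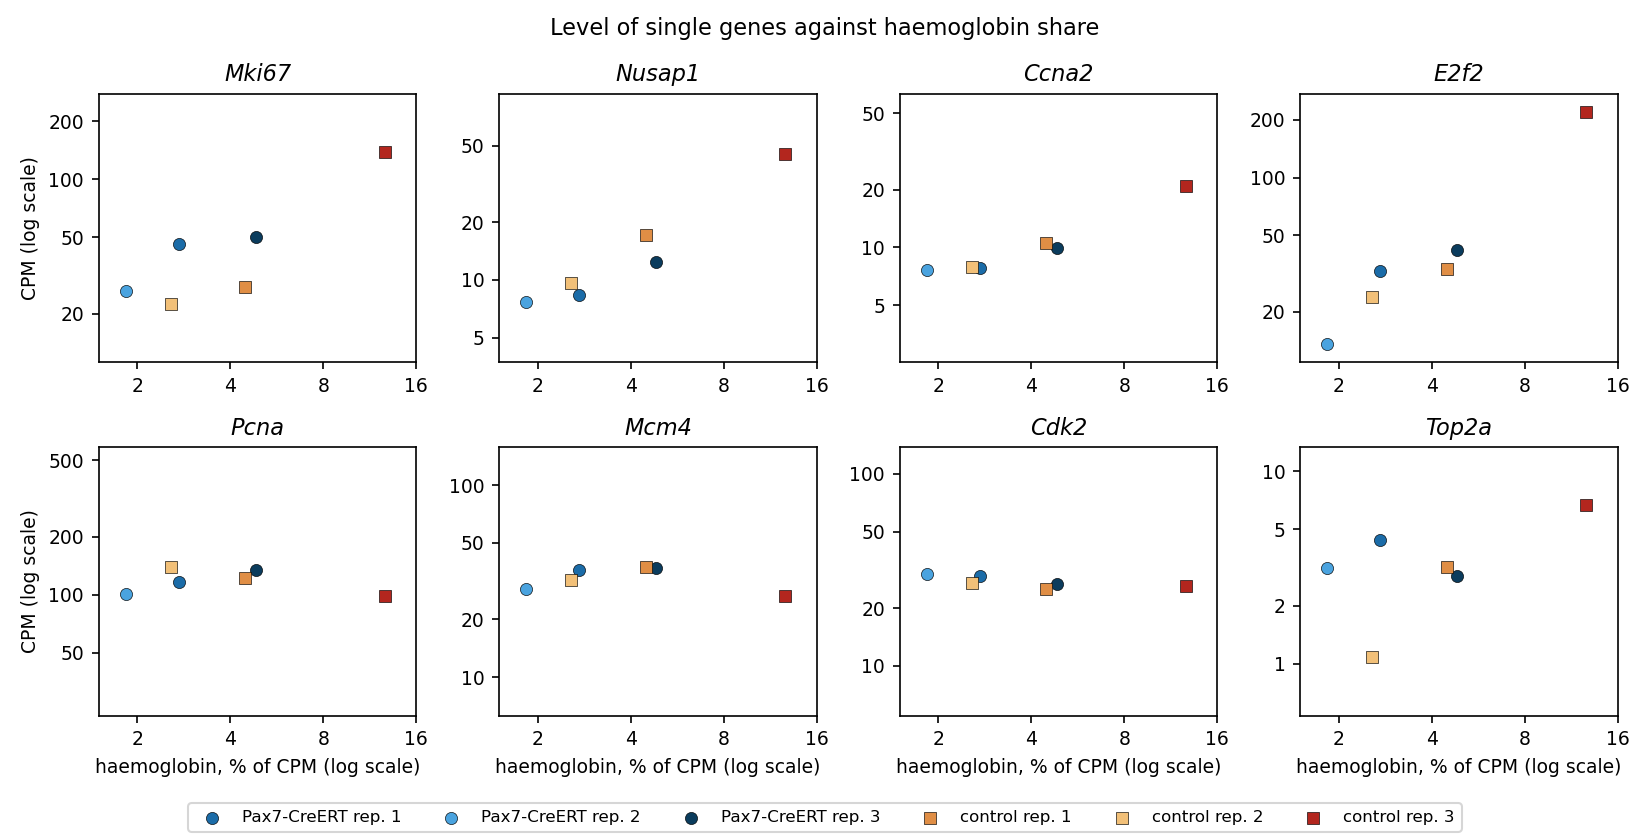
CPM of 8 genes (log axis, spanning the same ratio in each panel) against the share of haemoglobin transcripts in each library (percent of CPM, log axis), with 1 point per library. Ccna2, Nusap1 and E2f2 climb across the libraries, Mki67 is highest in control replicate 3 but scattered below it, and Pcna, Mcm4 and Cdk2 vary far less.

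The wider pathway gave the same picture of small differences between genotypes. Of 109 further genes, 102 were in the table and 81 were tested. Of the 81, 48 had higher and 33 lower means in the Pax7-CreERT mice, beside 68.0% of all genes higher. The median log2 fold change was 0.04, beside 0.09 for all genes, and 0 of the 81 had an adjusted p under 0.05. At an unadjusted p under 0.05 there were 2, both higher, where 5.52% of all genes passed. The groups did not overlap in 5 that were higher and 6 that were lower, beside 8.69% and 2.28% of all genes. The 5 include Ckap2, which passed the filter only through the Pax7-CreERT libraries. The pocket protein, E2F and MuvB factors divided into 9 higher and 9 lower (median 0.00), the origin, fork and nucleotide genes into 12 and 10 (0.01), the spindle, checkpoint and cytokinesis genes into 17 and 8 (0.13), and the other inhibitors and p53 targets into 10 and 6 (0.03).

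Cenpf, a kinetochore protein of G2 and mitosis, measured 5.36, 5.17 and 3.66 CPM in Pax7-CreERT mice and 1.504, 1.75 and 3.70 CPM in control mice. Control replicate 3 alone reached the Pax7-CreERT range. For Cenpf the log2 fold change was 0.83 (SE 0.29, adjusted p = 0.891), and the adjusted p was 0.557 without control replicate 3, where the log2 fold change was 1.11. Ckap2, a microtubule-associated protein of the spindle, measured 1.68, 1.05 and 2.04 CPM against 0.501, 0.404 and 0.987 CPM. The log2 fold change was 0.66 (SE 0.30, adjusted p = 0.896). Ckap2 reached 1 CPM only in the Pax7-CreERT libraries, so it passed the filter through the group where it was high. The lack of overlap between its groups was fixed by that filter, and no support for a difference is drawn from it or from its p.

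The gene with the lowest p in each of the other lists did not reach an unadjusted p of 0.05. Tfdp2, a dimer partner of E2F factors, measured 82.7, 81.5 and 95.7 CPM against 109, 92.4 and 196 CPM, with a log2 fold change of -0.53 (adjusted p = 0.896), which was -0.21 without control replicate 3. Gins1, a subunit of the replicative helicase complex, measured 0.946, 1.498 and 0.611 CPM against 1.84, 1.75 and 1.97 CPM. Mdm2, the ubiquitin ligase that p53 induces and that removes p53, measured 127, 125 and 135 CPM against 115, 117 and 95.7 CPM. In both of the latter the groups did not overlap, with log2 fold changes of -0.52 and 0.24, and that of Mdm2 was 0.15 without control replicate 3.

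Of the 81, 6 had an r above 0.9 with the haemoglobin share, where 1.92% of all genes tested did. These were E2f2, Tfdp2, Dut, Cdca3, Cdc25b and Ube2c, named after their values were seen. E2f2, an activator E2F with a known role in erythroid maturation, measured 32.7, 13.6 and 41.9 CPM in Pax7-CreERT mice and 33.3, 23.8 and 219.6 CPM in control mice. Its order over the 6 libraries was that of the haemoglobin share, with r = 0.97 (exact permutation p = 0.00139) and rho = 1 (exact permutation p = 0.00278). Each p is the least that 720 pairings can give, so it does not set E2f2 above other genes at that p. Neither passed the Benjamini-Hochberg adjustment over all genes, where the lowest adjusted p was 0.263 for r and 0.432 for rho. Without control replicate 3 the r of E2f2 was 0.84. The phosphatase gene Cdc25b, which activates Cdk1, measured 17.9, 12.5 and 19.1 CPM against 20.9, 14.7 and 54.3 CPM. E2f2 had a log2 fold change between genotypes of -1.05 (adjusted p = 0.899), which was -0.08 without control replicate 3 and 0.08 with the haemoglobin share as a covariate.

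**Figure D5:**
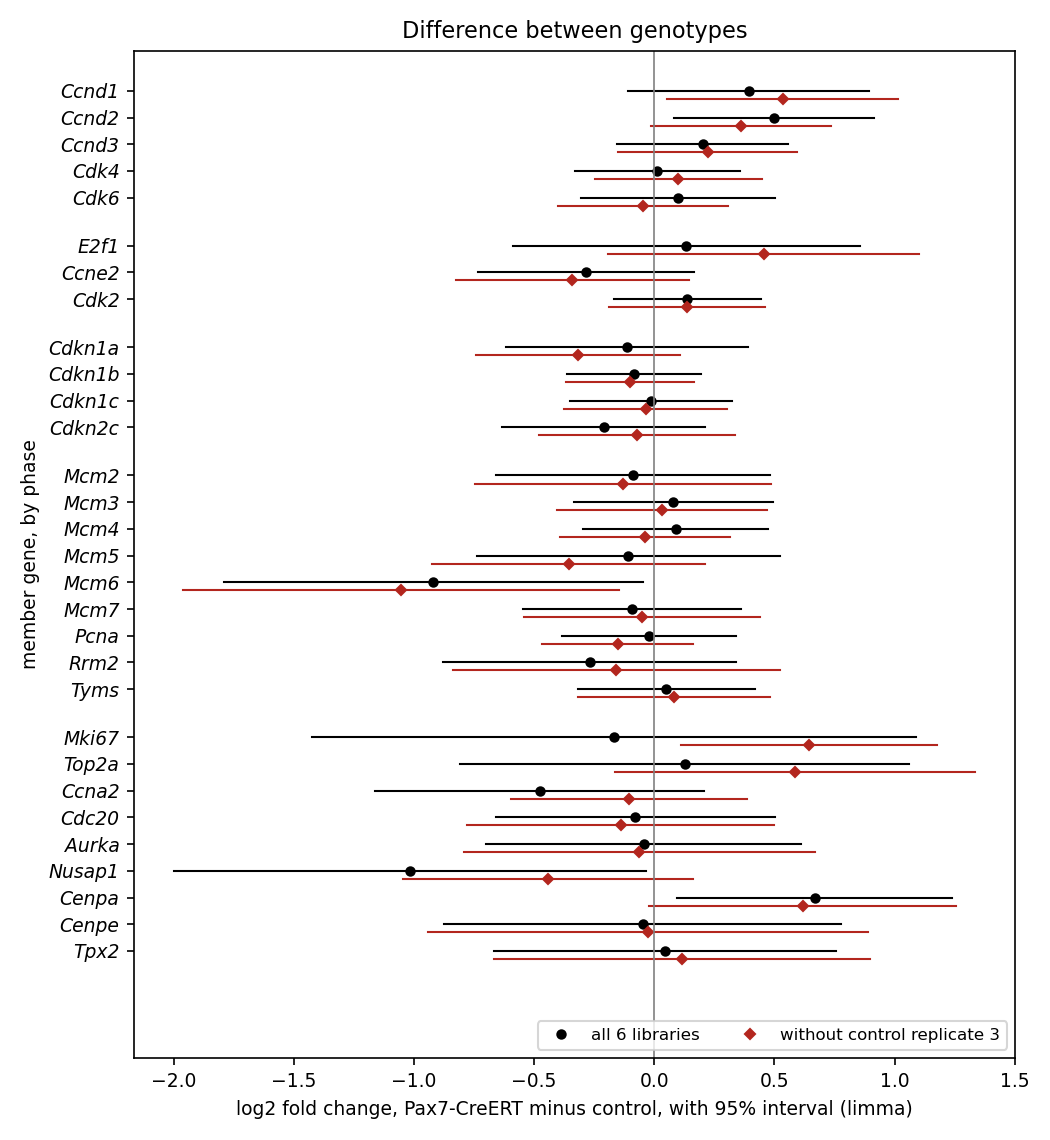
Log2 fold change of each tested member, Pax7-CreERT minus control, with its 95% interval from limma, for all 6 libraries (black circles) and without control replicate 3 (red diamonds). Most intervals span 0 under both; Mki67 goes from -0.17 to 0.64 and Nusap1 from -1.02 to -0.44.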

How the data were processed

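RNA-seq of 6 libraries was used, 3 per genotype, made from Trizol RNA with a strand-specific SureSelect kit per the labels' protocols. The submitters' processing notes name Partek, DESeq2 and mm10 without saying what each did; aligner, counting rule and annotation release are not given in the sources used here. The deposited values are CPM with 0.0001 added by the authors to each, read from the values, since each library sums to 1000000 plus that constant; the constant was removed. Depth was estimated from the CPM of 1 read. Of the values up to 20 reads, 93.1% to 94.1% were whole within 0.05 read, under the 95% needed, so no count model was run. Columns left unused: 0.

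Genotypes were compared over all 6 libraries on log2(CPM + 1) by limma (version 3.58.1, run in R 4.3.3) with a mean-variance trend. Genes needed 1 CPM or more in 3 or more libraries, with Benjamini-Hochberg adjustment over 14763 genes, after a check on simulated data. Fold changes are on that log2(CPM + 1) scale, which understates the change of low genes. The labels give each library as a separate sample but do not say that each is 1 mouse; "mice" is used for these samples, and p-values measure only the spread between them. Relations used exact permutation (scipy 1.17.1). Lengths per kb are union exons of GENCODE M21, and promoters are RefSeq entries. The table's ends lie 1 base past RefSeq's for 11050 genes, so 1 was subtracted from each end.

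Members and lists were chosen with earlier results of these data known. Genes given in every library were the 3 members of each list with the highest mean, members with an unadjusted p under 0.05 or with groups that did not overlap, and wider pathway genes with an unadjusted p under 0.05 or else the lowest p of their list; other genes given in this way illustrate the lists and were chosen after their values were seen. Promoters were printed for the member with the highest mean and that with the lowest p in the replication and mitotic lists. Alternatives were other scalings, pseudocounts, filters and variance models, a haemoglobin covariate, each library left out, and, added after seeing the data, both replicates 3 left out together.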

Additional observations from a re-analysis of the deposited data

How the results depend on the processing

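No paired analysis was possible because replicates were numbered in accession order, and no label ties a mouse of 1 genotype to a mouse of the other. Under all 17 alternatives 0 members passed an adjusted p under 0.05 (lowest 0.474, for Ccnd2, without both replicates 3). Over all genes the count of lower genes was 1; it was 2 with no filter, 0 to 1 without 1 library, and 5 without both replicates 3, where 17 genes were higher instead of 0. At an unadjusted p under 0.05, 676 genes were higher and 139 lower, against 386 and 304 with TMM factors and 366 and 314 with quantile normalization.

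List medians moved by more than the spread between replicates as follows; beyond scaling and the number of genes or libraries left in, the cause was not tested. With TMM factors they were 0.11 for G1, -0.19 for the CDK inhibitors and -0.082 for the pocket protein and E2F factors. With quantile normalization they were 0.12 for G1, -0.074 for the E2F factors and -0.10 for the origin and fork genes. With at least 5 CPM required, G1 to S was -0.074 (2 genes left) and G2 and mitosis -0.48 (3 left). With array weights the E2F factors were -0.070 and the p53 targets -0.091, and with the haemoglobin covariate the p53 targets were -0.11. Without both replicates 3, G1 was 0.11, the E2F factors -0.11 and the p53 targets -0.14. Leaving out 1 library gave 0.087 to 0.31 for G1, -0.049 to 0.14 for G1 to S, -0.14 to 0.015 for the CDK inhibitors, -0.076 to 0.093 for the E2F factors, -0.042 to 0.11 for the origin and fork genes and -0.12 to 0.11 for the p53 targets; the lowest G1 median was without Pax7-CreERT replicate 3 and the lowest p53 target median without control replicate 3. Of 365 values of 22 single genes, 354 stayed within the spread, 11 moved and 26 changed sign, in 8 genes. Depth limits the 7 untested mitotic genes, which had 11 to 42 reads a library in all, and changes of low genes depend on the pseudocount.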
